A study of Arabidopsis thaliana with 8 samples.

Results

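This is an account of 65 loci of Arabidopsis thaliana at which reads moved from one transcript model to another in the mutant lsm8-1, both with NaCl and on plain GM medium. They were found in the 4 libraries of the salt experiment, whose tables count reads per transcript model. A locus was eligible when it had 2 or more models and at least 50 summed reads in each of the 4 tables, and its main model was the one with most reads over the 4. The main model's share of the locus reads had to differ between lsm8-1 and Col-0 by 20 percentage points or more, in the same direction with NaCl and on GM. Of 25944 loci with a read, 5144 had several models and 3416 were eligible, and 65 of these (1.90%) are described here. The rule leaves out 2 further loci that also passed the threshold. The loci were thus chosen by the read shares of those 4 libraries, and every difference in share between lsm8-1 and Col-0 is given as a description without a test.

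LSM8 is the subunit that sets the nuclear LSM2-8 ring apart from the cytoplasmic LSM1-7 ring. The nuclear ring binds the end of U6 small nuclear RNA, which pairs with the start of an intron (the donor site) and helps to form the catalytic centre of the spliceosome. An intron that is not removed stays in the mRNA (intron retention), the most common kind of alternative splicing in plants. A retained intron in the coding region often brings a stop codon into frame.

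The salt experiment compared lsm8-1 and Col-0 plants transferred for 10 h to plates with 150 mM NaCl with plants kept on 0.5X GM plates. The cold experiment compared lsm8-1 and Col-0 plants in soil after 24 h at 4 °C (light of 40 µmol m-2 s-1) with plants at 20 °C, which like those on plates were lit with 90 µmol m-2 s-1. All plants were 2 weeks old and grew in long days, lsm8-1 is in the Col-0 background, and the labels name no transgene and no pooling of plants. Each of the 8 groups has 1 library, labelled as leaves, so within a condition no difference can be set against a spread between replicates.

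Salt libraries held 33.45 to 34.02 M reads (M, mega) and cold libraries 44.17 to 45.88 M. LSM8 had 29 reads in lsm8-1 and 208 in Col-0 with NaCl, and 51 in lsm8-1 and 269 in Col-0 on GM. It had 821 in lsm8-1 and 1816 in Col-0 at 4 °C, and 206 in lsm8-1 and 578 in Col-0 at 20 °C, fewer in lsm8-1 in each pair. In such bulk tissue, fewer cells of a type and less RNA per cell cannot be told apart. All 8 leaf markers reached 5 CPM (counts per M reads) in every library. Of 8 root markers, 8 reached 5 CPM in lsm8-1 and 5 in Col-0 with NaCl, 8 in each genotype on GM, and 1 in each soil library, where 1 to 4 were at 0. Summed root-marker CPM was 2173 in lsm8-1 and 3017 in Col-0 with NaCl, and 4555 in lsm8-1 and 7654 in Col-0 on GM, against 42.2 to 110 in soil. Summed leaf-marker CPM was 13190 in lsm8-1 and 9453 in Col-0 with NaCl, and 17680 in lsm8-1 and 11600 in Col-0 on GM. The part of these differences in marker levels in the shares below was not tested.

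Read counts in the salt tables are of uniquely placed reads per model. At the 65 loci the summed CPM on GM was a median 0.228 of the CPM at 20 °C in lsm8-1 (59 loci at 5 CPM or more in soil) and 0.258 in Col-0 (57 loci). Loci with 1 model had 1.65 in lsm8-1 and 1.92 in Col-0. Reads that fit several models of a locus may thus not be counted in the salt tables. A share is therefore a share of the reads that tell models apart, not of the RNA molecules, and the longer the sequence that sets a model apart, the more reads it can collect.

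Compared by their exons, the 65 pairs of models (the main model and the one that moved most against it) had one feature in common that the rule did not use. In 56 of 65 pairs (86.2%) the model that gained share in lsm8-1 keeps an intron that the other model removes. This holds for the structures of RefSeq's TAIR10.1 annotation, matched by model ID. Only 16 of these 56 pairs have the same difference in length as counted and in TAIR10.1. At LTP the counted model is too short for the intron, as given below. The retained introns of 8 of these loci are printed here, all of them in the coding region, because they show what the gaining models contain in TAIR10.1. They were read from RefSeq's TAIR10.1 genome on the strand of the gene, 5′ to 3′. For AT1G73650, YY1 and AT2G40110 the pair's difference in length in the tables is not that in TAIR10.1. For these loci the printed intron is not shown to lie in the counted model. The capitals mark the first 6 intron bases, which form the intron part of the donor site, and the last 3 bases, which form the acceptor site.
AT3G56590, chr3:20967626-20967698, plus strand: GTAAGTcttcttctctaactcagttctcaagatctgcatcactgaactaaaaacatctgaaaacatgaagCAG
AT1G73650, chr1:27688458-27688560, minus strand: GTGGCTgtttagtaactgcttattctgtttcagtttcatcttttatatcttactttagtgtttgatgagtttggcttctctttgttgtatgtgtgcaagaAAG
AT3G30380, chr3:11976433-11976498, plus strand: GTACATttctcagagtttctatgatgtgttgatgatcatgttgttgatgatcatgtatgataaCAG
YY1, chr4:3766141-3766217, minus strand: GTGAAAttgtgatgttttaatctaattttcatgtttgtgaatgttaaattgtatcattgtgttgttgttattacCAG
AT2G40110, chr2:16749199-16749269, plus strand: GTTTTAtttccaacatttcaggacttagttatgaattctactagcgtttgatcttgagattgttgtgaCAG
RCD1, chr1:11615740-11615831, plus strand: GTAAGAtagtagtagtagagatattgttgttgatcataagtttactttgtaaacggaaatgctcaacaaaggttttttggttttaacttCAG
RPT2, chr2:13005420-13005502, minus strand: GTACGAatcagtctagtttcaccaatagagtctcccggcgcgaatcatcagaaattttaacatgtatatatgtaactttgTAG
SYD, chr2:12072241-12072333, plus strand: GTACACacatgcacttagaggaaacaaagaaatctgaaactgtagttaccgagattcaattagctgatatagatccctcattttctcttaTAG
Only AT3G56590 and RCD1 among the 8 have the donor start GTAAG, and the introns of AT3G30380 and SYD are those whose length is a multiple of 3 with no stop codon in frame.

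Retention thus went one way at nearly all of the 65 loci. Of 57 pairs with a retained intron in 1 model only, the retaining model gained share in 56 (98.2%). Over all eligible loci it did so in 72.8% of 1429 such pairs, and over the eligible loci outside the 65 in 985 of 1372 (71.8%). Such pairs made up 57 of the 65 loci (87.7%) and 1372 of the other 3351 eligible loci (40.9%). Retained introns lengthen a model, and the longer model gained in 47 of 65 pairs, against 1791 of 3327 pairs elsewhere (53.8%). The pairs whose difference in length is the same in the tables and in TAIR10.1 gave 16 of 17 retaining models that gained, against 232 of 324 outside the 65 loci (71.6%).

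**Figure D1:**
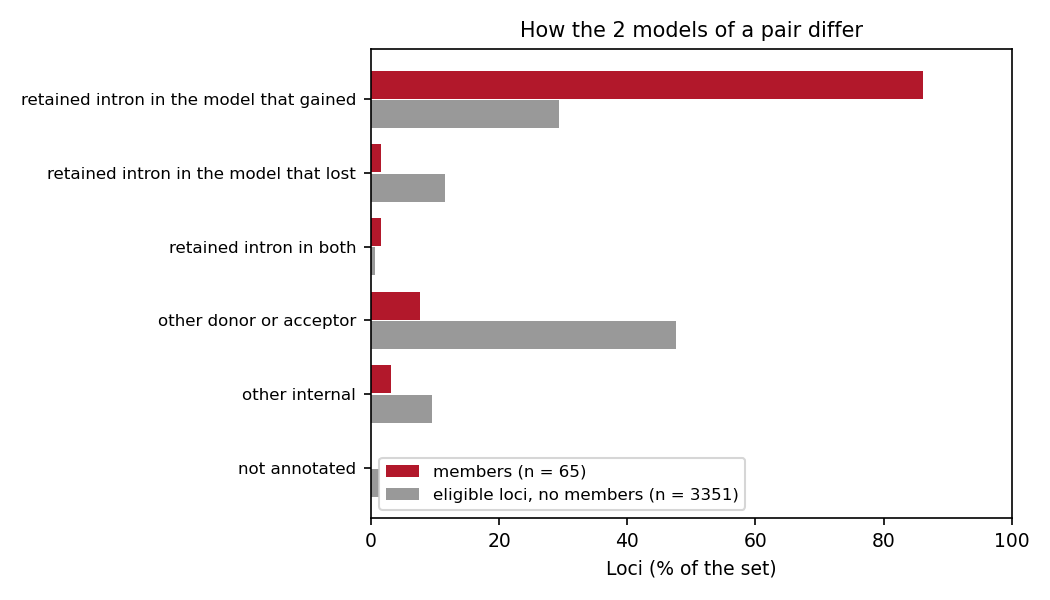
Share of loci (% of the set, x axis) in each class of difference between the 2 models of a pair (y axis), for the 65 loci (red) and the other 3351 eligible loci (grey). A retained intron in the model that gained accounts for 86.2% of the 65 loci and 29.4% of the others, while another donor or acceptor accounts for 7.69% and 47.6%.

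The direction of retention did not start at the threshold of 20 points. Among eligible pairs with the intron kept in 1 model and both shifts in the same direction, the retaining model was the higher one in lsm8-1 at 427 of 576 loci (74.1%) when the smaller of both shifts was under 5 points. It was the higher one at 147 of 172 loci (85.5%) from 5 to 10 points, 100 of 104 (96.2%) from 10 to 15 and 51 of 52 (98.1%) from 15 to 20. Just inside the threshold stood AT5G08535 with shifts of 20.0 points with NaCl and 28.88 on GM, AT2G29910 with 23.45 and 20.05, and AT4G31115 with -20.37 and -36.74. Just outside it stood AT1G02160 with -21.83 and -19.99, the sucrose-phosphatase gene SPP2 with -19.58 and -26.33, and AT5G62130 with -19.48 and -19.87.

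**Figure D2:**
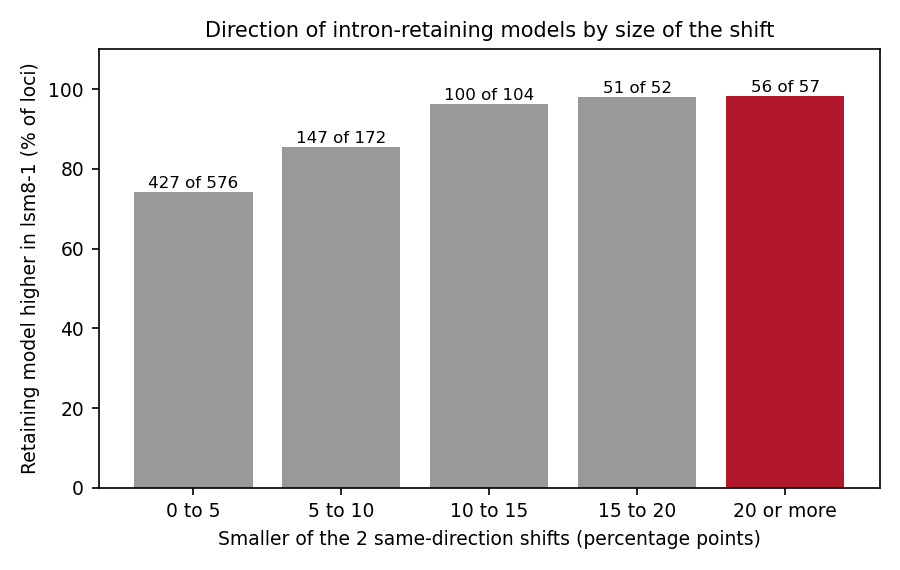
Share of loci at which the intron-retaining model was higher in lsm8-1 (%, y axis, starting at 0) by the smaller of the shifts with NaCl and on GM (percentage points, x axis), for eligible pairs with retention in 1 model and both shifts in one direction. Bars stand at 74.1% under 5 points and at 98.2% at 20 points or more (red, the 57 of the 65 loci with such a pair), with loci counted above each bar.

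Taken over the 57 loci, the intron-retaining model held a median 51.9% of the locus reads in lsm8-1 and 25.5% in Col-0 with NaCl. On GM it held a median 54.4% in lsm8-1 and 24.2% in Col-0. Its shift, lsm8-1 minus Col-0, had a median of 26.02 points with NaCl (-23.4 to 47.3) and 32.1 points on GM (-20.1 to 63.6), against medians of 1.38 and 2.76 points at the 1372 other eligible loci with such a pair. The reads of each model are given next as a description. They are the reads that chose these loci, so opposite moves of the 2 models can follow from the choice itself. Other eligible loci were not counted in this way. With NaCl the reads of the retaining model were more frequent (CPM) in lsm8-1 at 53 of the 56 loci where it gained, and those of the spliced model less frequent at 54, and on GM at 55 and 55. Retaining models had a median of 2.84 CPM in lsm8-1 and 1.30 CPM in Col-0 with NaCl, and 3.62 CPM in lsm8-1 and 1.23 CPM in Col-0 on GM. Spliced models had a median of 1.999 CPM in lsm8-1 and 3.95 CPM in Col-0 with NaCl, and 1.71 CPM in lsm8-1 and 3.56 CPM in Col-0 on GM.

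**Figure D3:**
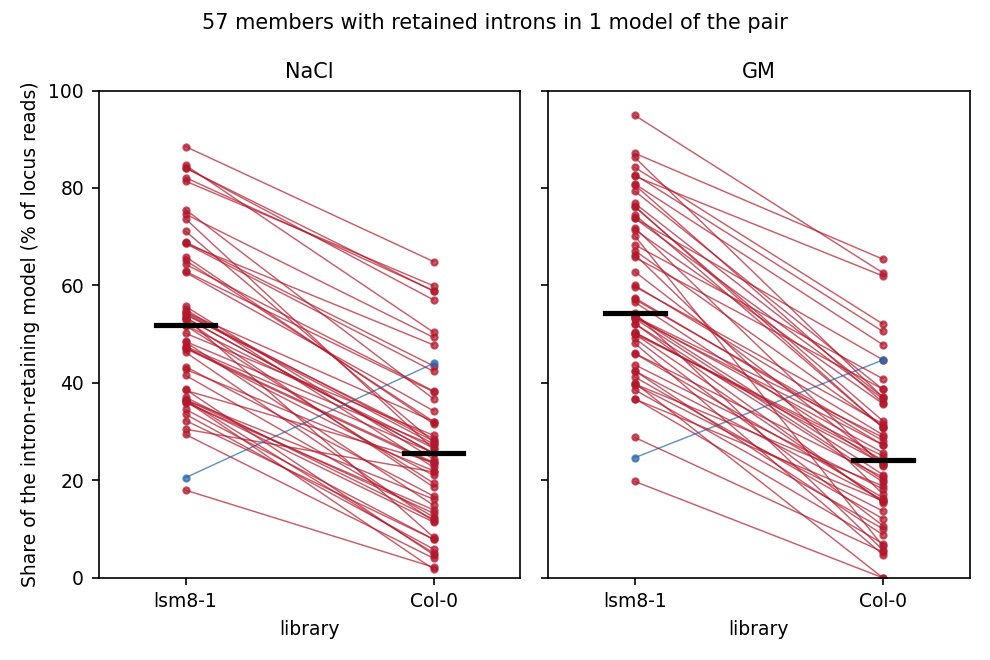
Share of the intron-retaining model (% of locus reads, y axis) in the lsm8-1 and Col-0 library with NaCl (left) and on GM (right); each line is 1 of 57 loci, red where the share is higher in lsm8-1 and blue where it is lower, and black bars are medians. All lines but that of AT2G29910 are higher at lsm8-1, and the medians are 51.9% in lsm8-1 and 25.5% in Col-0 with NaCl, and 54.4% in lsm8-1 and 24.2% in Col-0 on GM.

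The shares of single loci follow, ordered by what the genes encode. Wilson 95% intervals of the 57 retaining shares in the 4 libraries were 2.76 to 26.5 points wide (median 12.2) and cover counting error only. They are printed for the first locus of each group. The order by role follows the RefSeq products and is not a finding about these functions. Introns and retaining models are named by TAIR10.1. Of the retaining loci described below, lengths match it at RCD1, TBP1, SYD, SUO, DEK1, RPT2, NUDX13, AT3G56590 and AT3G30380. At the others the intron is not shown to lie in the counted model. At some, EER4, AT2G21500, PLMT and AT5G26740 among them, the counted retaining model is the shorter of the pair.

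Several of the loci encode proteins of transcription, chromatin and RNA metabolism. RCD1, a nuclear protein that binds transcription factors and takes part in responses to reactive oxygen, is among the most deeply counted of them. Its model with the last intron kept held 38.7% of 980 reads (35.7 to 41.8) in lsm8-1 and 4.73% of 613 reads (3.31 to 6.71) in Col-0 with NaCl. On GM this model held 36.8% of 982 reads (33.8 to 39.8) in lsm8-1 and 7.01% of 471 reads (5.03 to 9.68) in Col-0. The Col-0 libraries thus hold few reads of the retained form, and the lsm8-1 libraries hold 379 with NaCl and 361 on GM. EER4, a subunit of the general transcription factor TFIID, keeps in TAIR10.1 the last of its 8 introns, which lies in the 3′ UTR. As counted, its retaining model has 2406 bases and the spliced one 2497, so retention at EER4 is not shown by these reads. The retaining model of EER4 made up 55.7% in lsm8-1 and 24.4% in Col-0 with NaCl, and 53.2% in lsm8-1 and 20.1% in Col-0 on GM. YY1, a zinc finger transcription factor, had 36.5% of the retaining form in lsm8-1 and 13.2% in Col-0 with NaCl, and 42.5% in lsm8-1 and 8.82% in Col-0 on GM. These shares rest on 52 to 83 reads. TBP1, the TATA-binding protein, had 51.9% in lsm8-1 and 26.6% in Col-0 with NaCl, and 62.8% in lsm8-1 and 23.6% in Col-0 on GM. The chromatin remodelling ATPase SYD, of the SWI/SNF family, keeps the last of 34 introns, and its retaining form is the main model. It made up 54.0% in lsm8-1 and 28.6% in Col-0 with NaCl, and 76.1% in lsm8-1 and 32.2% in Col-0 on GM. SUVH9, which binds methylated DNA in the RNA-directed DNA methylation pathway, had 48.4% in lsm8-1 and 14.9% in Col-0 with NaCl, and 50% in lsm8-1 and 25% in Col-0 on GM. SUO, a gene found in a screen for factors of microRNA-guided repression of translation, keeps an 80-base intron of its 3′ UTR. That form had 62.7% in lsm8-1 and 34.3% in Col-0 with NaCl, and 67.2% in lsm8-1 and 31.0% in Col-0 on GM. AT1G79090, a homologue of the yeast decapping activator Pat1, which works with the cytoplasmic LSM1-7 ring, gained with smaller counting error. Its retaining form held 81.4% of 871 reads in lsm8-1 and 59.9% of 908 reads in Col-0 with NaCl, and 82.4% of 773 in lsm8-1 and 62.0% of 770 in Col-0 on GM. AT3G17100, a DNA-binding transcription factor, had 68.6% in lsm8-1 and 42.4% in Col-0 with NaCl, and 86.3% in lsm8-1 and 37.0% in Col-0 on GM. In all of these genes the share in both lsm8-1 libraries was above that in both Col-0 libraries.

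Ubiquitin genes and RING-type ligases are a further group. UBQ14 encodes polyubiquitin, a chain of ubiquitin units that is cut apart after translation, and keeps the 297-base intron of its 5′ UTR. Its retaining form held 33.6% of 1451 reads (31.2 to 36.0) in lsm8-1 and 5.88% of 1088 reads (4.63 to 7.44) in Col-0 with NaCl. On GM it held 48.1% of 1162 reads (45.2 to 51.0) in lsm8-1 and 4.75% of 926 reads (3.56 to 6.32) in Col-0. Polyubiquitin genes are alike in sequence, so uniquely placed reads may cover UBQ14 in part only. AT1G50440, a RING and PHD zinc finger protein, had 75.6% in lsm8-1 and 36.7% in Col-0 with NaCl, and 80.6% in lsm8-1 and 36.0% in Col-0 on GM, by retention of the first intron in the 5′ UTR. AT2G21500, a RING protein, had 65.9% in lsm8-1 and 31.6% in Col-0 with NaCl, and 71.8% in lsm8-1 and 22.9% in Col-0 on GM. The retained intron of AT2G21500 is the last one, in the 3′ UTR. AT5G49710, another RING protein, keeps a coding intron of 466 bases. It had 65.2% of this form in lsm8-1 and 32.1% in Col-0 with NaCl, and 79.3% in lsm8-1 and 38.7% in Col-0 on GM. RMA1, a ligase anchored in the endoplasmic reticulum membrane, had 53.4% in lsm8-1 and 25.6% in Col-0 with NaCl, and 65.8% in lsm8-1 and 38.7% in Col-0 on GM. BRG1, a RING protein related to the defence regulator BOI, had few reads of the retaining model in Col-0, 4 with NaCl and 7 on GM. It had 36.4% of the retaining form in lsm8-1 and 1.76% in Col-0 with NaCl, and 28.8% in lsm8-1 and 5.30% in Col-0 on GM. UBC35, a conjugating enzyme for lysine-63 chains, had 84.1% in lsm8-1 and 58.8% in Col-0 with NaCl, and 87.1% in lsm8-1 and 65.4% in Col-0 on GM. So UBC35 was mostly counted as the retaining form in Col-0 too, while BRG1 and UBQ14 were not.

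Kinases, light signalling and development are represented by other members. DEK1, a membrane calpain protease needed for epidermis formation, keeps the last of its 30 introns, in the 3′ UTR. The retaining form held 46.3% of 162 reads (38.8 to 54.0) in lsm8-1 and 11.6% of 138 reads (7.26 to 18.0) in Col-0 with NaCl. On GM it held 66.3% of 297 reads (60.8 to 71.5) in lsm8-1 and 17.2% of 186 reads (12.5 to 23.3) in Col-0. RPT2, an NPH3-family protein of phototropin signalling, had 36.2% in lsm8-1 and 11.4% in Col-0 with NaCl, and 39.6% in lsm8-1 and 13.7% in Col-0 on GM, by retention of its first intron, printed above. CIPK3, a kinase activated by calcineurin B-like calcium sensors, has several models. Its main model held 31.9% in lsm8-1 and 55.8% in Col-0 with NaCl, and 24.7% in lsm8-1 and 50.4% in Col-0 on GM, while the retaining form held 30.5% in lsm8-1 and 21.7% in Col-0 with NaCl, and 38.6% in lsm8-1 and 10.07% in Col-0 on GM. Part of the loss of its main model with NaCl was thus taken up by other models. With NaCl the intervals of the retaining form of CIPK3 overlap, 23.5 to 38.5% in lsm8-1 and 15.7 to 29.3% in Col-0. The gaining model of WNK2, a protein kinase without the usual lysine, keeps 2 introns. This model had 47.3% in lsm8-1 and 21.1% in Col-0 with NaCl, and 50.3% in lsm8-1 and 24.2% in Col-0 on GM. Its reads may come from either intron, and whether both are kept in the same RNA molecule was not tested.

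Metabolic and organelle proteins form another group. The gaining model of GDH2, glutamate dehydrogenase, keeps 3 introns, of 111, 85 and 75 bases. Whether the same RNA molecule keeps all 3 was not tested. This model held 54.5% of 281 reads (48.6 to 60.2) in lsm8-1 and 28.1% of 278 reads (23.1 to 33.6) in Col-0 with NaCl. On GM it held 50% of 264 reads (44.0 to 56.0) in lsm8-1 and 15.7% of 287 reads (11.9 to 20.3) in Col-0. PLMT, a phospholipid methyltransferase of phosphatidylcholine synthesis, had 71.1% in lsm8-1 and 27.9% in Col-0 with NaCl, and 73.8% in lsm8-1 and 44.7% in Col-0 on GM. The shift of PLMT was larger with NaCl, as it was at 19 of the 65 loci, and at the other 46 it was larger on GM. NUDX13, a nudix hydrolase, keeps the shortest of the introns, of 64 bases in the 5′ UTR. It had 84.2% of the retaining form in lsm8-1 and 57.0% in Col-0 with NaCl, and 73.8% in lsm8-1 and 36.7% in Col-0 on GM. AT2G30695, related to bacterial trigger factor, a chaperone, had 41.6% in lsm8-1 and 12.5% in Col-0 with NaCl, and 46.0% in lsm8-1 and 16.4% in Col-0 on GM. AT4G15010, a mitochondrial carrier protein, had 38.5% in lsm8-1 and 23.8% in Col-0 with NaCl, and 57.5% in lsm8-1 and 27.3% in Col-0 on GM. AT1G36310, a methyltransferase, had the largest shift on GM of all 65. Its retaining form had 55.1% in lsm8-1 and 22.7% in Col-0 with NaCl, and 70.2% in lsm8-1 and 6.52% in Col-0 on GM, and the share in lsm8-1 was higher on GM than with NaCl while that in Col-0 was lower. The gaining model of LTP, a lipid transfer protein, had 64.3% in lsm8-1 and 38.3% in Col-0 with NaCl, and 60.0% in lsm8-1 and 29.3% in Col-0 on GM. In TAIR10.1 this model keeps a 653-base intron, but the model counted here is 518 bases long. The counted model cannot hold that intron whole, so retention at LTP is not shown by these reads.

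Taking the smaller of both shifts at each locus, the first of the 65 was AT3G56590, a hydroxyproline-rich glycoprotein gene. The model that keeps its last intron, the first of those printed, held 73.7% of 152 reads (66.2 to 80.0) in lsm8-1 and 26.4% of 197 reads (20.7 to 33.0) in Col-0 with NaCl. On GM the share was 76.2% of 324 reads (71.3 to 80.5) in lsm8-1 and 30.8% of 214 reads (25.0 to 37.3) in Col-0. By these reads the retaining form was the minor one in Col-0 and the major one in lsm8-1. AT1G73650, annotated as a steroid dehydrogenase relative, had 84.7% in lsm8-1 and 50.4% in Col-0 with NaCl, and 76.8% in lsm8-1 and 37.1% in Col-0 on GM. AT3G30380, an alpha/beta hydrolase, had 36.5% in lsm8-1 and 5.08% in Col-0 with NaCl, and 49.1% in lsm8-1 and 10.7% in Col-0 on GM. Col-0 held 3 reads of the retaining model of AT3G30380 with NaCl and 6 on GM, so these shares carry wide intervals of 1.74 to 13.9% and 5.0 to 21.5%. AT2G40110, of the Yippee family of zinc-binding proteins, had 52.9% in lsm8-1 and 18.6% in Col-0 with NaCl, and 41.2% in lsm8-1 and 12.1% in Col-0 on GM. AT5G26740, a membrane protein with a domain of unknown function, had 34.6% in lsm8-1 and 7.89% in Col-0 with NaCl, and 39.8% in lsm8-1 and 18.8% in Col-0 on GM. Its main model, which removes the intron, lost more: it held 32.3% in lsm8-1 and 73.7% in Col-0 with NaCl, and 16.0% in lsm8-1 and 58.0% in Col-0 on GM. At AT1G73390, a BRO1-domain protein, 0 of 77 reads came from the retaining model in Col-0 on GM, which allows a share of up to 3.90%. The other shares of this model were 18.0% in lsm8-1 and 2.19% in Col-0 with NaCl, and 19.8% in lsm8-1 on GM.

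The other 9 loci show no retained intron in the gaining model alone. At AT2G29910, an F-box protein gene, the retaining model lost: it held 20.6% in lsm8-1 and 44.0% in Col-0 with NaCl, and 24.7% in lsm8-1 and 44.7% in Col-0 on GM. AT3G10915, a reticulon gene, has a different intron kept in each model of the pair. Its main model, which lost, held 48.5% in lsm8-1 and 75.9% in Col-0 with NaCl, and 54.1% in lsm8-1 and 86.4% in Col-0 on GM. At XBAT35, a RING ubiquitin ligase with ankyrin repeats, and PAT1 (AT5G48150), a GRAS protein of phytochrome A signalling, the gaining model has 1 long intron where the other has 2 introns around an exon. The main model of XBAT35, which includes the exon, held 42.5% in lsm8-1 and 66.3% in Col-0 with NaCl, and 35.7% in lsm8-1 and 66.3% in Col-0 on GM. That of PAT1 held 37.5% in lsm8-1 and 63.9% in Col-0 with NaCl, and 42.1% in lsm8-1 and 65.4% in Col-0 on GM. The exon has 72 bases in XBAT35 and 80 in PAT1. AT5G08535, a G-patch protein, also has 1 long intron in the gaining model and 2 in the other, but with only 2 bases between them. Its main model, with the long intron, held 100% of 64 reads in lsm8-1 and 80.0% of 105 in Col-0 with NaCl, and 93.0% in lsm8-1 and 64.1% in Col-0 on GM. At AT3G45850, which encodes a P-loop hydrolase, and FAC1, which encodes AMP deaminase, the pair differs in the donor site of 1 intron. The gaining model of AT3G45850 uses the nearer donor (intron of 281 in place of 428 bases) and held 74.1% in lsm8-1 and 45.2% in Col-0 with NaCl, and 75.3% in lsm8-1 and 38.6% in Col-0 on GM. For FAC1 the gaining model has an intron of 87 in place of 72 bases and held 86.8% in lsm8-1 and 56.4% in Col-0 with NaCl, and 83.8% in lsm8-1 and 61.2% in Col-0 on GM. Lhca5, an antenna protein of photosystem I, and AT2G42320 differ by an intron at an end of the gene that the gaining model lacks. The main model of Lhca5, which lost, held 53.0% in lsm8-1 and 74.8% in Col-0 with NaCl, and 34.96% in lsm8-1 and 64.4% in Col-0 on GM. That of AT2G42320, which gained, held 67.4% in lsm8-1 and 36.8% in Col-0 with NaCl, and 65.8% in lsm8-1 and 44.2% in Col-0 on GM.

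**Figure D4:**
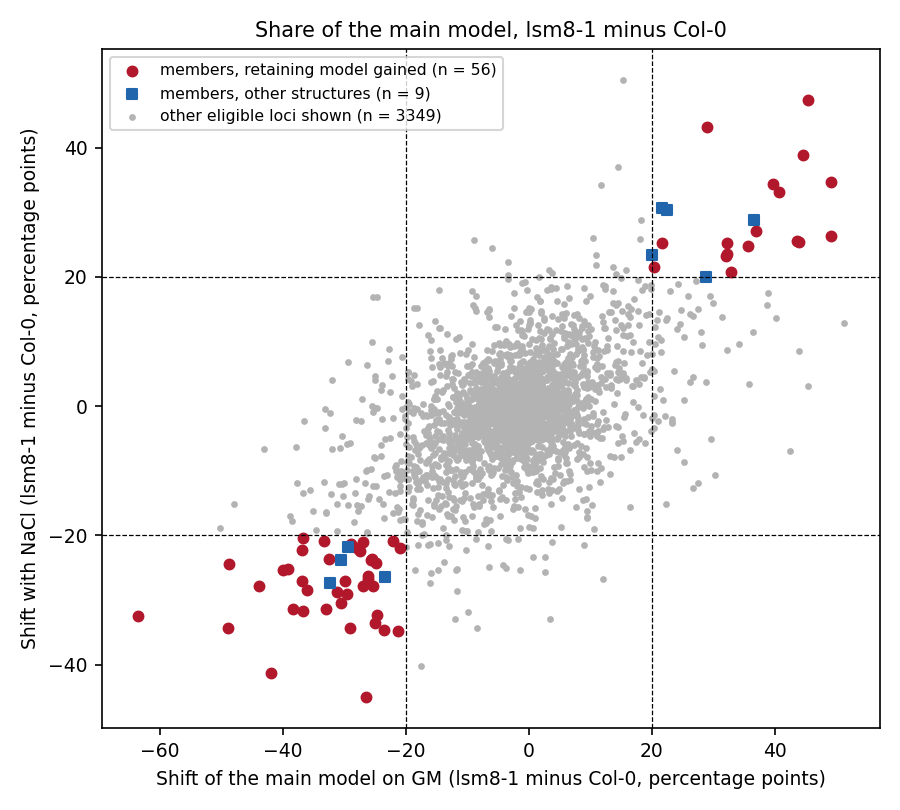
Shift of the main model's share (lsm8-1 minus Col-0, percentage points) with NaCl (y axis) against that on GM (x axis), 1 point per eligible locus; red circles are the 56 loci whose retaining model gained, blue squares the other 9 and grey dots other eligible loci, with dashed lines at 20 points. The 65 loci lie in 2 opposite corners, 43 with a main model that lost share and 22 with one that gained.

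Because the main model is the one with most reads, it was the spliced form at some loci and the retaining form at others. The main model lost share at 43 loci and gained at 22, and a loss made up 65.2% of the 2010 eligible loci with shifts in the same direction in both conditions. Of all eligible loci, 7.03% shifted by 20 points or more on GM and 3.57% with NaCl, and both counts include the 1.96% that did so in the same direction in both. Absolute shifts of the 65 had a median of 26.7 points with NaCl (20.0 to 47.3) and 31.2 on GM (20.1 to 63.6), and all eligible loci had medians of 2.84 and 3.47. The pair was the only one at 44 loci with 2 models, while 14 loci had 3 models, 6 had 4 and 1 had 5. By chromosome, 14, 18, 13, 11 and 9 loci lay on chromosomes 1, 2, 3, 4 and 5.

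The retained introns were short. The 63 introns kept in TAIR10.1 by the gaining models of 56 loci were 64 to 897 bases long with a median of 88 bases. They include the 653-base intron of LTP. The 1478 introns kept by 1 model at the other eligible loci had a median of 116 bases, and all 28586 introns of eligible loci had 104. Unlike the 63, the 1478 also come from retaining models that lost share, as in 387 of the 1372 such pairs outside the 65 loci. Introns under 100 bases made up 42 of 63 (66.7%), 39.5% and 45.6% of these sets. By position, 25 of the 63 (39.7%) were the first intron of the spliced model and 31 (49.2%) the last, a single intron being both, against 37.96% and 40.1% of the 1478. They lay in the coding region in 30 cases (47.6%, against 65.2% of the 1478) and in the 5′ UTR in 20 (31.7% against 23.1%). A further 11 lay in the 3′ UTR (17.5% against 11.0%) and 2 in models without a coding region. Of the 30 coding introns, 21 (70.0%) bring a stop codon in frame, 18 have a length that is not a multiple of 3, and 7 have neither. Among the coding introns of the 1478 the share with a stop codon in frame was 72.6%.

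**Figure D5:**
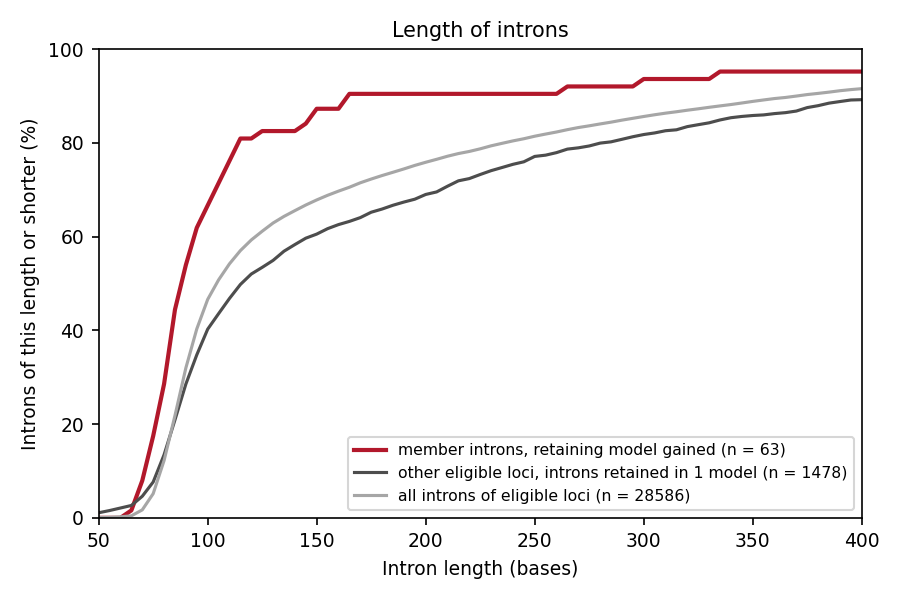
Cumulative share of introns (%, y axis) by length in bases (x axis, 50 to 400), for the 63 introns kept by gaining models at the 65 loci (red), 1478 introns kept by 1 model at other eligible loci (dark grey) and all 28586 introns of eligible loci (light grey). Introns under 100 bases make up 66.7% of the first set, 39.5% of the second and 45.6% of the third.

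All 63 introns start with GT and end with AG. A G at the fifth intron base, part of the common donor sequence GTAAG, was present in 23 of 63 (36.5%), against 45.3% of the 1478 and 50.4% of all introns. A G at the last exon base was present in 53 of 63 (84.1%), against 74.1% and 77.1%. The full start GTAAG was found in 8 of 63 (12.7%), 13.8% and 16.0%. The median GC content was 33.3%, 34.2% and 33.3%. These are counts of letters in annotated introns, and several of them share a locus.

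Between salt and plain medium, the retaining model's share in lsm8-1 was lower with NaCl than on GM at 44 of the 56 loci where it gained (78.6%), with a median difference, NaCl minus GM, of -5.38 points (-22.7 to 11.7). In Col-0 it was lower at 28 and higher at 28, with a median of 0.101 points (-19.6 to 20.3). At the other eligible loci with such a pair it was lower with NaCl at 64.1% in lsm8-1 and 48.2% in Col-0. In lsm8-1 the main model of SYD, which retains the intron, had 22.1 points less with NaCl than on GM. These differences rest on the shares that chose the loci and are given without a test. Model use for NaCl against GM, additive with genotype, was tested over all eligible loci (edgeR diffSpliceDGE). It used the same model counts that chose the 65 loci, so its values for them are no independent result. The test called none of the 65, beside 0.0293% of the 3416 loci tested. At an unadjusted p under 0.05 there were 4 of the 65 (6.15%) and 237 of all 3416 (6.94%), and the lowest adjusted p among the 65 was 0.646. With 1 library per group this fit has 1 residual degree of freedom. The simulated data changed the odds of the first-listed model of a locus. The fit recovered 0.0% of 2-fold and 47.0% of 4-fold changes in these odds, so large changes with salt could be missed too.

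The summed reads of 9 of the 65 loci differed between NaCl and GM over both genotypes (edgeR quasi-likelihood, Benjamini-Hochberg), 3 higher and 6 lower, beside 36.2% of 19392 loci (18.3% higher, 17.9% lower). Their median log2 difference was -0.04, and that of all loci was 0.00. AT1G73390 was higher with NaCl. It had 7.23 TMM-scaled CPM in lsm8-1 and 10.2 in Col-0 with NaCl, against 2.88 in lsm8-1 and 2.23 in Col-0 on GM, a log2 difference of 1.76 (SE 0.29, adjusted p = 0.00863 by edgeR). EMB2654, a pentatricopeptide-like protein needed for embryo development, had 6.30 CPM in lsm8-1 and 6.53 in Col-0 with NaCl, against 14.8 in lsm8-1 and 15.4 in Col-0 on GM (-1.24, SE 0.17, adjusted p = 0.00539 by edgeR). RPT2 had 10.3 CPM in lsm8-1 and 3.89 in Col-0 with NaCl, against 16.6 in lsm8-1 and 9.94 in Col-0 on GM (-1.01, SE 0.23, adjusted p = 0.0230 by edgeR). DESeq2 called 3 of the 65, these same genes. The other loci called by edgeR were AT3G52120 and AT4G38090, higher, and AT1G35340, AT2G30695, FBH4 and AT4G38520, lower. Since reads shared by models may not be counted, a summed count here can also move with model use.

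The cold tables count reads per gene, and the rule did not use them. Of the 63 loci that were tested, 6 (9.52%) differed between lsm8-1 and Col-0 over both temperatures, 3 higher and 3 lower, beside 8.55% of 17589 loci (4.00% higher, 4.55% lower). The median log2 difference was 0.07 over the 63 and 0.01 over all loci tested. The share called is near that of all loci, and is no result about these 63. With all 8 libraries in 1 fit none of the 65 was called by edgeR. DESeq2 called 3, the ones described next. AT1G50440 had 13.9 TMM-scaled CPM in lsm8-1 and 7.78 in Col-0 at 4 °C, and 17.8 in lsm8-1 and 9.93 in Col-0 at 20 °C, a genotype difference of 0.84 (log2, SE 0.16, adjusted p = 0.00192 by edgeR quasi-likelihood). LTP had 63.2 CPM in lsm8-1 and 103 in Col-0 at 4 °C, and 87.9 in lsm8-1 and 172 in Col-0 at 20 °C, a difference of -0.84 (SE 0.14, adjusted p = 8.79e-04 by edgeR). AT3G56590 had 42.6 CPM in lsm8-1 and 84.3 in Col-0 at 4 °C, and 76.7 in lsm8-1 and 95.3 in Col-0 at 20 °C (-0.65, SE 0.16, adjusted p = 0.0137 by edgeR). These 3 went the same way at both temperatures, and in AT3G56590 the gap was wider at 4 °C. UBQ14 (0.47) and AT5G01670 (0.60) were the other loci higher in lsm8-1, and IMPA-2 (-0.50), which encodes a nuclear import receptor, was the other lower one.

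For 4 °C against 20 °C, 28 of the 63 loci (44.4%) passed, 11 higher and 17 lower, beside 56.6% of all loci (28.8% higher, 27.7% lower). RPT2 had 78.3 CPM in lsm8-1 and 55.5 in Col-0 at 4 °C, against 373 in lsm8-1 and 333 in Col-0 at 20 °C, a log2 difference of -2.42 (SE 0.16, adjusted p = 6.97e-11 by edgeR). AT3G17100 had 9.52 CPM in lsm8-1 and 10.2 in Col-0 at 4 °C, against 32.6 in lsm8-1 and 42.1 in Col-0 at 20 °C (-1.91, SE 0.16, adjusted p = 2.80e-09 by edgeR). AT2G42320 had 7.83 CPM in lsm8-1 and 8.11 in Col-0 at 4 °C, against 26.7 in lsm8-1 and 29.9 in Col-0 at 20 °C (-1.83, SE 0.16, adjusted p = 4.59e-09 by edgeR). In all 3 genes both 4 °C libraries were below both 20 °C libraries.

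The cold tables also give the share of a gene's length with reads. For 63 of the 64 loci listed there this length is that of the longest model. It bears on retention only where the longest model is the retaining one. At 37 such loci the covered share was higher in lsm8-1 at 23 at 4 °C (62.2%) and at 25 at 20 °C (67.6%), against 63.5% and 70.2% of 951 other eligible loci of this kind. Median coverage of the 37 was 94.6% in lsm8-1 and 93.6% in Col-0 at 4 °C, and 95.4% in lsm8-1 and 91.95% in Col-0 at 20 °C. The shares of loci with higher coverage in lsm8-1 are near those of the other loci and are no result about the 37. AT2G40110 was among those with the widest gaps, with 47.0% covered in lsm8-1 and 27.1% in Col-0 at 4 °C, and 74.8% in lsm8-1 and 42.5% in Col-0 at 20 °C. That locus has a low level in soil.

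None of the 125 genes on lists of related functions were among the 65. Of these genes 53 were eligible, and beside the 1.90% of all eligible loci this count is no result about the lists, which do not hold the 2 loci left out by the rule. These lists held 13 eligible SR and SR-like splicing factors, 11 other splicing and RNA-binding factors, 3 LSM genes, 5 clock genes, 5 flowering-time genes, 7 genes of abscisic acid signalling and 5 of mRNA decay, besides leaf and root markers. The lists do not hold AT1G79090.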

How the data were processed

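RNA-seq read counts of 8 Arabidopsis libraries were used, 1 per group. Per the file headers, the deposited tables give counts of uniquely placed reads, per gene in the cold and per transcript model in the salt experiment, with the feature's length in bases. The deposited coverage, in percent of that length, was used for the cold experiment only. Per the submitters' processing notes the genome was TAIR10. Aligner and counting tool: not given in the sources used here. A feature not listed was taken as 0. Exon structures, sequences and products came from RefSeq's annotation of TAIR10.1, matched by model ID. The difference in length of a pair was as in the tables for 19 of 65 pairs.

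Members and lists were chosen with earlier results of these data known. By its rule, 2 loci are not reported here. Named loci are the 24 with the largest smaller-of-both shift and, for each test, the 3 called loci with the largest effect. Other loci were named after their values were seen. Printed introns are those of the first 8 loci by the same order whose gaining model keeps 1 coding intron of up to 150 bases and no other.

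Levels were tested with edgeR 4.0.16 (R 4.3.3): TMM scaling, loci at 1 CPM in 2 or more libraries, additive quasi-likelihood fits over the 4 libraries of an experiment (1 residual degree of freedom) and Benjamini-Hochberg adjustment over all loci with a threshold of 0.05. Model use was tested with diffSpliceDGE. DESeq2 1.42.0 was an alternative. The fits were tested on simulated data. With 1 library per group, the residual of these fits is the departure from additive effects of genotype and condition. P-values therefore do not measure a spread between replicates. CPM of single models and of LSM8 use library totals, and Wilson 95% intervals and the floor of 3 counts cover counting error only, as reads are not independent molecules.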

Additional observations from a re-analysis of the deposited data

How the results depend on the processing

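Of the counts and shares that answer a comparison, 27 values under alternative settings stayed within 1.5 times the main one and 15 moved. The number of loci chosen was 65, and became 134 with a threshold of 15 points, 12 with 30 points, 109 with a minimum of 20 reads, 42 with 100 and 21 with 200. In these sets the retaining model gained in 98.2% to 100% of pairs with retention in 1 model. The sets are nested: those of 30 points, 100 reads and 200 reads lie within the 65, and those of 15 points and 20 reads hold all 65. These shares are thus not independent of the main one. The main model chosen by mean share, shares per length or any model gave 65, 61 and 71 loci. Pairs with matching lengths, an alternative added after seeing the data, left 16 of the 56 gaining retaining models, since few pairs match.

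Genotype calls in the cold experiment were 680 with DESeq2 and 221 with all 8 libraries in 1 fit, against 1504, and the calls among the 65 were 3 and 0, against 6. In the 8-library fit AT1G50440 had an adjusted p of 0.135, LTP 0.0702 and AT3G56590 0.659 (edgeR), and AT3G56590 had 0.0799 with library totals. The salt calls among the 65 were 3 with DESeq2 and 5 without a filter, against 9. Model use for salt gave 1 locus, and 13 with models at 1 CPM, 0 with the Simes method and 3 with library totals. The cause of these differences was not tested.

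No paired analysis was possible because each group has 1 library and no replicate numbers. Leaving out a library leaves a 4-library fit with no residual degrees of freedom.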
